A study of Mus musculus with 8 samples.

Results

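The prostaglandin genes examined were 9 chosen by name: the cyclooxygenases *Ptgs1* and *Ptgs2*, the synthases *Ptges*, *Ptges2*, *Ptges3* and *Ptgds*, and the prostaglandin E2 receptors *Ptger1*, *Ptger3* and *Ptger4*. These 9 members were among 45706 genes quantified in bulk RNA-seq of mouse hippocampal neurons. The neurons were prepared from wild-type C57/Bl6 embryos at E18, and at 12 to 14 days in vitro they received 1 µM melanin-concentrating hormone (MCH), a hypothalamic neuropeptide, or H2O as vehicle for 4 h. All wells had also been given fluorodeoxyuridine, which limits the growth of glia. Each treatment had 4 wells, numbered as replicates 1 to 4, drawn from 2 independent cultures that each gave 2 wells per treatment. The sources used here do not say which replicate came from which culture, and the sample labels carry an Alzheimer's disease tag beside the wild-type genotype. Wells of 1 culture share their preparation, so the spread between wells is in part technical.

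Prostaglandins are short-lived lipid signals made from arachidonic acid, which phospholipases cut from membranes. A cyclooxygenase, either the standing form encoded by *Ptgs1* or the inducible form encoded by *Ptgs2*, converts it to prostaglandin H2, and terminal synthases then form prostaglandin E2, D2 and other products that act on G protein-coupled receptors. In the forebrain *Ptgs2* is expressed in excitatory neurons and behaves as an early response gene of synaptic activity.

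Neuronal markers were abundant in every well, with sums of 5900 to 6559 CPM, that is, counts scaled to a common library size, over 7 genes, and library totals ranged from 26083936 to 31844861 estimated counts. The first principal component, with 54.4% of the variance, placed replicates 1 and 2 of both treatments apart from replicates 3 and 4. The astrocyte markers summed to 1023 to 1126 CPM in the former wells and to 2106 to 2396 CPM in the latter, with all 7 genes lower in the former, whereas by treatment their ranges overlapped (1023 to 2270 CPM with vehicle, 1102 to 2396 CPM with MCH). In such bulk samples, fewer cells of a type and less RNA per cell cannot be told apart. Because replicate numbers were shared between treatments and the wells with the same number deviated together, each comparison was made without and with the replicate number as a block. Wells of other numbers within replicates 1 and 2, or within 3 and 4, deviated together as much (correlations of 0.399 to 0.477, against 0.364 to 0.479). The pairs by number are therefore not shown to be matched beyond that split.

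Per unit of transcript length, the co-chaperone gene *Ptges3* was the most abundant member, at 126 ± 3.26 TPM (transcripts scaled for length and depth; mean ± SD, n = 8 wells), followed by *Ptges2* at 49.2 ± 3.40 TPM and *Ptgs2* at 19.7 ± 9.88 TPM. These 3 genes kept this order in 8 of 8 wells as sums over all their transcripts. Most of the *Ptges2* value, 41.1 TPM, came from the retained-intron transcript *Ptges2-203* of 765 bases, and the coding *Ptges2-201* was at 6.89 TPM, in every well below the coding *Ptgs2-201* at 16.5 TPM, so for the coding transcripts the order of these genes was the reverse. *Ptgds* (8.64 ± 1.84 TPM) came after *Ptgs2* in 7 of 8 wells, although the ranges of the pair overlapped, and was not separated from *Ptger3* (6.76 ± 1.40 TPM), which it exceeded in 4 of 8 wells. *Ptgs1* (1.90 ± 0.621 TPM) was below *Ptger3* in all 8 wells and overlapped *Ptges* (1.28 ± 0.996 TPM), which in turn overlapped *Ptger4* (0.472 ± 0.185 TPM). *Ptger1* was lowest, at 0.106 ± 0.0364 TPM. Thus the RNA of the inducible cyclooxygenase was more abundant than that of the standing form in every well.

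*Ptgs2* (ENSMUSG00000032487; GRCm38 chr1:150100031-150108227, plus strand) had 61.5, 61.6, 39.0 and 35.8 CPM in vehicle-treated replicates 1 to 4, and 41.7, 43.0, 23.6 and 22.7 CPM in the MCH-treated replicates. The MCH-treated well was lower than the vehicle-treated well of the same number in 4 of 4 pairs, but MCH-treated replicates 1 and 2 lay above vehicle-treated replicates 3 and 4, so the treatments overlapped. Mean levels were 49.5 ± 13.98 CPM with vehicle and 32.8 ± 11.1 CPM with MCH (SD, n = 4 wells each). Without a block, the log2 fold change was −0.59 (SE 0.294) and did not pass the threshold of 0.05 (edgeR quasi-likelihood test, BH-adjusted *P* = 0.651). With the replicate block it was −0.61 (SE 0.0473), a level 34.4% lower with MCH, and passed (edgeR, adjusted *P* = 4.68e-07). The wells came from 2 cultures, so the error of this fit may cover in part only the spread between wells of a culture. By *P* value *Ptgs2* ranked 5 of 14962 genes with the block and 1852 without it.

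**Figure D1:**
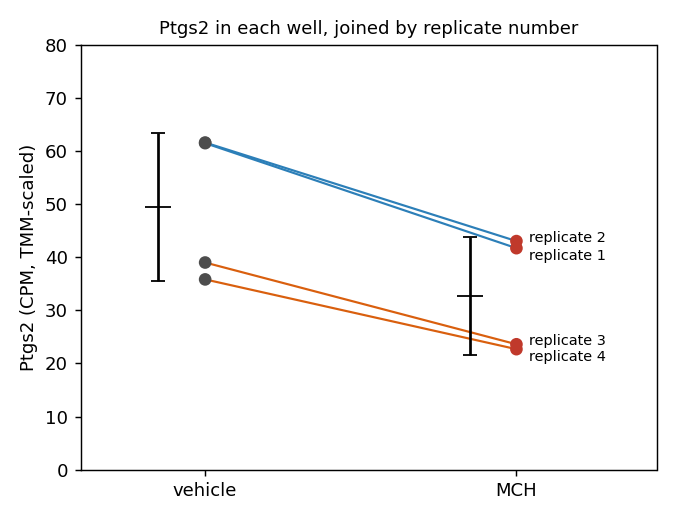
*Ptgs2* in each well as TMM-scaled CPM (y axis) for vehicle and MCH (x axis), with lines joining wells of the same replicate number (blue, replicates 1 and 2; orange, replicates 3 and 4) and black bars giving the mean ± SD of 4 wells. All 4 lines slope down, from 61.5, 61.6, 39.0 and 35.8 CPM to 41.7, 43.0, 23.6 and 22.7 CPM.

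The pairwise log2 differences in *Ptgs2* were −0.56, −0.52, −0.72 and −0.66 for replicates 1 to 4, a narrow range beside the difference of 0.80 between the replicates 1 and 2 and the replicates 3 and 4. Fitted on replicates 1 and 2 alone, the log2 fold change was −0.52 (SE 0.0527, edgeR adjusted *P* = 0.00276), and on replicates 3 and 4 alone it was −0.69 (SE 0.0709, edgeR adjusted *P* = 7.75e-06). Each fit held 2 wells per treatment that may come from 1 culture, so its error may cover only the spread between wells of a culture. The difference between the effects in the 2 fits was not past the threshold (interaction −0.15, SE 0.0875, edgeR adjusted *P* = 0.739, where 0.0267% of all genes passed). Over the wells without a block, an exact two-sided permutation test of the log2 level gave *P* = 0.171, where the 70 assignments allow no value below 0.0286.

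Almost all *Ptgs2* reads, 99.5%, were assigned to the full-length transcript *Ptgs2-201* of 4453 bases, which had 1328 ± 351 estimated reads with vehicle and 945 ± 331 with MCH (log2 fold change −0.58, SE 0.287, edgeR adjusted *P* = 1 over 33527 transcripts). With the replicate block its log2 fold change was −0.605 and did not pass either (edgeR adjusted *P* = 0.637). Of all 33527 transcripts, 0 passed with either fit. A short transcript of 358 bases, *Ptgs2-202*, was assigned 10.9, 23.1, 10.8 and 0 reads in the vehicle-treated wells and 0 in all 4 MCH-treated wells. Short transcripts weigh heavily in values per length, and these few reads moved the TPM of the gene. It was 26.03 ± 10.01 TPM with vehicle and 13.3 ± 4.50 TPM with MCH, and without transcripts under 500 bases the vehicle mean was 19.7 ± 5.36 TPM. The counts, which do not depend on the length assigned, carry the comparison above.

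The region around the annotated start of *Ptgs2* is shown because it holds short motifs bound by activity-responsive factors. It is the RefSeq sequence of GRCm38.p6, chr1:150099931-150100060 on the plus strand, 130 bases from 5′ to 3′ in which base 101 is the annotated start. Capitals mark TTGCGCAA, the palindrome recognised by C/EBP proteins, and CGTCA, the core of a cAMP response element, which overlaps CACGTG, an E-box.
Ptgs2 start region: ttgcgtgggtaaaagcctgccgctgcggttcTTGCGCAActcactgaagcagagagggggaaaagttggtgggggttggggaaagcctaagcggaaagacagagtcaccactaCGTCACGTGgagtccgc
TTGCGCAA began 69 bases before the start, CGTCA at position 14 and CACGTG at position 17, counted from 1 at the start. In the 300-base window around the start, searched on both strands, TTGCGCAA was found in 0.183% of 32851 promoters, CACGTG in 7.15% and CGTCA in 20.8%. The full palindromic element TGACGTCA (1.79% of promoters), the AP-1 motif TGANTCA (7.81%) and TATAAA (13.6%) had no match in the *Ptgs2* window. Among the 8 members with a promoter sequence, *Ptgs2* was the only gene with TTGCGCAA, CGTCA and CACGTG were each found in 2, TGANTCA in 1 (*Ptgds*), and GGGCGG in 5, against 35.7% of all promoters. A match describes letters and is not evidence of binding.

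*Ptgs1* (ENSMUSG00000047250; chr2:36230426-36252272, plus strand), which encodes the standing cyclooxygenase, had 2.83, 3.66, 2.01 and 1.90 CPM with vehicle and 3.61, 3.00, 2.04 and 1.93 CPM with MCH. The treatments overlapped throughout, at 2.60 ± 0.821 and 2.65 ± 0.803 CPM, on 51 to 113 estimated counts per well. Its log2 fold change was 0.03 (SE 0.277, edgeR adjusted *P* = 1) and 0.03 with the replicate block (SE 0.158, edgeR adjusted *P* = 0.953). Its sign turned when transcript length was taken into account (−0.12). It also turned when any of 4 wells was left out of the fit without a block, which unbalances replicates 1 and 2 against 3 and 4. The gene overlaps the unclassified locus *Gm43621* on the opposite strand by 2022 bases.

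The *Ptgs2* to *Ptgs1* ratio of TPM was 16.7, 12.97, 16.5 and 7.76 with vehicle and 6.18, 8.92, 7.20 and 7.31 with MCH. The vehicle-treated wells were spread more widely, and replicate 4 lay among the MCH-treated wells. The means were 13.5 ± 4.19 and 7.40 ± 1.13 (log2 difference −0.82, exact two-sided permutation test, *P* = 0.0571, n = 4 wells each), and the ratio was lower with MCH in 4 of 4 pairs, by 0.09 to 1.43 on the log2 scale. Without transcripts under 500 bases, the vehicle mean was 10.3 ± 2.63 and the log2 difference −0.46, lower in 3 of 4 pairs (exact permutation test, *P* = 0.0857). As a ratio of estimated counts, which no transcript length enters, the log2 difference was −0.65, lower in 4 of 4 pairs (exact permutation test, *P* = 0.0286, the smallest value possible).

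Of the terminal synthases, *Ptges* (ENSMUSG00000050737; chr2:30889471-30929863, minus strand) encodes the inducible microsomal prostaglandin E synthase. It had 0.542, 0.507, 2.29 and 2.27 CPM with vehicle and 0.415, 0.263, 1.453 and 1.86 CPM with MCH, on 7 to 65 estimated counts. Replicates 1 and 2 were low and replicates 3 and 4 high in both treatments, the reverse of *Ptgs2*. The MCH-treated well was the lower of each of the 4 pairs. The log2 fold change was −0.49 (SE 0.726, edgeR adjusted *P* = 0.955), and with the block −0.51 (SE 0.238, edgeR adjusted *P* = 0.27). In fits without a block, where leaving out a well unbalances replicates 1 and 2 against 3 and 4, it moved to −0.14 without vehicle-treated replicate 3 and to −0.97 without MCH-treated replicate 4.

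*Ptges2* (ENSMUSG00000026820; chr2:32395896-32405772, plus strand), which encodes a membrane-associated prostaglandin E synthase, had 35.4, 33.01, 31.4 and 32.4 CPM with vehicle and 30.03, 32.1, 29.9 and 30.4 CPM with MCH. Its wells differed little within a treatment, at 33.04 ± 1.70 and 30.6 ± 1.01 CPM, and the ranges overlapped by 1 MCH-treated well. The log2 fold change was −0.11 (SE 0.0501, edgeR adjusted *P* = 0.597) and the same size with the block (SE 0.0504, edgeR adjusted *P* = 0.264). The retained-intron transcript *Ptges2-203* was assigned 39.1% of its reads.

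*Ptges3* (ENSMUSG00000071072; chr10:128058954-128077272, plus strand) encodes p23, a co-chaperone of Hsp90 that is also called the cytosolic prostaglandin E synthase. It had 117, 125, 113 and 121 CPM with vehicle and 111, 117, 111 and 114 CPM with MCH, and the treatments overlapped. The log2 fold change was −0.07 (SE 0.0410, edgeR adjusted *P* = 0.724) and −0.07 with the block (SE 0.0321, edgeR adjusted *P* = 0.277). The near-identical pseudogene *Ptges3-ps* was assigned 8.48 to 13.2 CPM, so the split of reads between these loci is uncertain.

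*Ptgds* (ENSMUSG00000015090; chr2:25466709-25470046, minus strand) encodes the lipocalin-type prostaglandin D synthase, a product of meningeal and glial cells in the brain. It had 2.63, 2.65, 3.49 and 4.198 CPM with vehicle and 2.62, 2.63, 3.91 and 3.33 CPM with MCH, higher in replicates 3 and 4 of both treatments. The log2 fold change was −0.05 (SE 0.206, edgeR adjusted *P* = 1) and −0.05 with the block (SE 0.141, edgeR adjusted *P* = 0.905), with no common sign among the pairs, and its sign turned when any of 3 wells was left out.

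**Figure D2:**
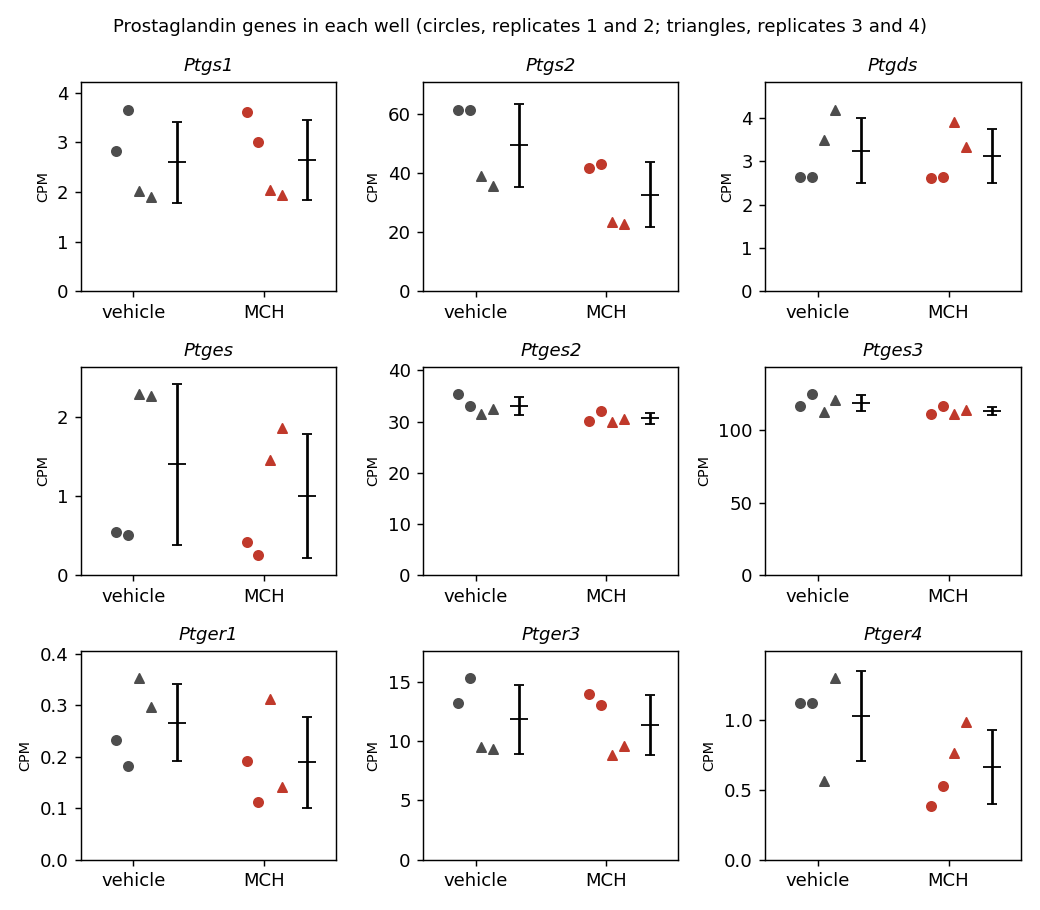
CPM (y axes, each from 0 with its own scale) of the 9 genes in each vehicle-treated (grey) and MCH-treated (red) well, with circles for replicates 1 and 2, triangles for replicates 3 and 4, and black bars for the mean ± SD of 4 wells. The treatments overlap for all 9 genes, and circles and triangles separate for *Ptgs1*, *Ptgs2*, *Ptger3*, *Ptges* and *Ptgds*.

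Among the receptors of prostaglandin E2, *Ptger3* (ENSMUSG00000040016; chr3:157566892-157645888, plus strand), which encodes the EP3 receptor coupled to inhibitory G proteins, was the most abundant. It had 13.2, 15.3, 9.55 and 9.36 CPM with vehicle and 13.96, 13.1, 8.86 and 9.58 CPM with MCH. Replicates 1 and 2 were higher than replicates 3 and 4 with either treatment, and the treatments overlapped (log2 fold change −0.06, SE 0.205, edgeR adjusted *P* = 1; with the block −0.06, SE 0.0761, adjusted *P* = 0.754). Its sign turned when any of 4 wells was left out of the fit without a block, which unbalances replicates 1 and 2 against 3 and 4. Most *Ptger3* reads, 79.6%, were assigned to a retained-intron transcript, *Ptger3-203*, and not to a coding form.

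*Ptger4* (ENSMUSG00000039942; chr15:5206661-5244187, minus strand) encodes the EP4 receptor, which raises cAMP. It had 1.12, 1.12, 0.564 and 1.30 CPM with vehicle and 0.383, 0.526, 0.761 and 0.983 CPM with MCH, on 12 to 35 estimated counts. The MCH-treated well was lower in pairs 1, 2 and 4 and higher in pair 3. The log2 fold change was −0.63 (SE 0.363, edgeR adjusted *P* = 0.715), of similar size to that of *Ptgs2* with a larger error, and with the block it was −0.63 (SE 0.310, edgeR adjusted *P* = 0.301). Replicates 1 and 2 had a mean log2 difference of −1.29 and replicates 3 and 4 of 0.01, and the interaction did not pass the threshold (edgeR adjusted *P* = 0.655). The gene overlaps *Ttc33* on the opposite strand by 11676 bases. The library kit marks strand, and whether the quantification used it is not given in the sources used here, so reads of genes that overlap on opposite strands may not be separated.

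*Ptger1* (ENSMUSG00000019464; chr8:83666678-83672753, plus strand), which encodes the EP1 receptor coupled to calcium, was the member that did not pass the filter on low counts. It was assigned 6, 5, 10 and 8 estimated counts with vehicle and 6, 3, 9 and 4 with MCH, beside a floor of 3 counts at or under which a gene was taken as not distinguished from absence.

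Over the 8 members tested, 7 log2 fold changes were below 0 and 1 above, with a median of −0.09 beside 0.00 over all 14962 genes. Without a block, 0 of 8 passed the adjusted threshold in edgeR and limma voom and 0 of the 6 to which DESeq2 gave an adjusted *P* (not *Ptges* and *Ptger4*), where edgeR called 0.234% of all genes (0.207% lower with MCH), DESeq2 1.14% and limma voom 0.207%. At an unadjusted *P* under 0.05, edgeR again called 0 of 8, against 8.5% of all genes. With the replicate block *Ptgs2* was the 1 of 8 past the adjusted threshold, against 3.98% of all genes and 2.25% in this direction. At an unadjusted *P* under 0.05 the block gave 4 of 8, *Ptgs2*, *Ptges*, *Ptges2* and *Ptges3*, all lower, against 17.6% of all genes. *Ptgs2*, *Ptges*, *Ptges2* and *Ptges3*, 4 of the 8, were lower in all 4 pairs, as were 13.9% of all genes, and 0 of the 8 were lower with MCH without overlap, as were 2.96% of all genes.

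**Figure D3:**
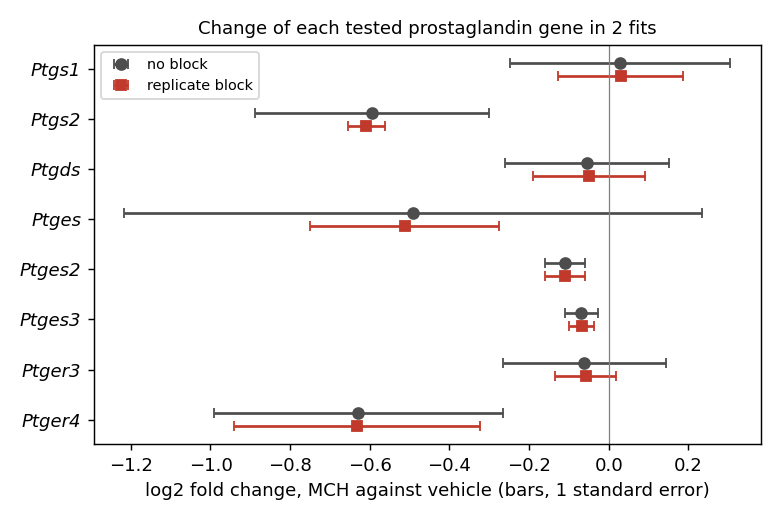
Log2 fold change of MCH against vehicle (x axis, bars of 1 standard error, derived from the test statistic) for the 8 tested genes, from the fit without a block (grey circles) and with the replicate block (red squares). The estimates barely move between the fits, whereas the error of *Ptgs2* shrinks from 0.294 to 0.0473 and that of *Ptges* from 0.726 to 0.238.

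The difference between replicates 1 and 2 and replicates 3 and 4, read from the counts and given as a description, was larger for several members than the difference between treatments. That of *Ptgs2* was known when the members were chosen. *Ptgs1*, *Ptgs2* and *Ptger3* were higher in every well of replicates 1 and 2, by 1.65-fold, 1.74-fold and 1.48-fold, as were 13% of all genes. *Ptges* and *Ptgds* were lower in every well of replicates 1 and 2, as were 16.6% of all genes, and had 0.223 and 0.709 times the level of replicates 3 and 4. *Ptges2* and *Ptges3* differed by 0.07 and 0.03 on the log2 scale, where the median size over all genes was 0.118.

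Cell type markers moved along the same split. All 7 astrocyte markers were lower in replicates 1 and 2, by 0.26 to 2.64 on the log2 scale. Likewise lower were all 6 tested oligodendrocyte lineage markers (57.3 to 67.9 against 126 to 148 CPM summed, with *Sox10* and *Mog* at 0 in every well) and all 7 tested markers of fibroblasts, meninges and vessels (18.8 to 25.4 against 55.9 to 62.0 CPM). The neuronal markers went the other way (6345 to 6559 against 5900 to 6009 CPM), with 0 of 7 lower in replicates 1 and 2, and microglial markers were low throughout, at 4.13 to 7.13 CPM. The part of these cells in the levels of the prostaglandin genes was not tested. Between treatments, with the replicate block, *Gad1*, which encodes a GABA-synthesising enzyme of inhibitory neurons, was lower (log2 fold change −0.10, edgeR adjusted *P* = 0.0349) and the astrocyte glutamate transporter gene *Slc1a2* was higher (0.15, edgeR adjusted *P* = 0.0353) with MCH, where the block called 3.98% of all genes. *Slc1a2* was the 1 of 7 astrocyte markers called, *Gfap*, *Aqp4*, *Slc1a3* and *S100b* had values below 0 and the median of the list was 0.00, and without a block no marker passed in edgeR.

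**Figure D4:**
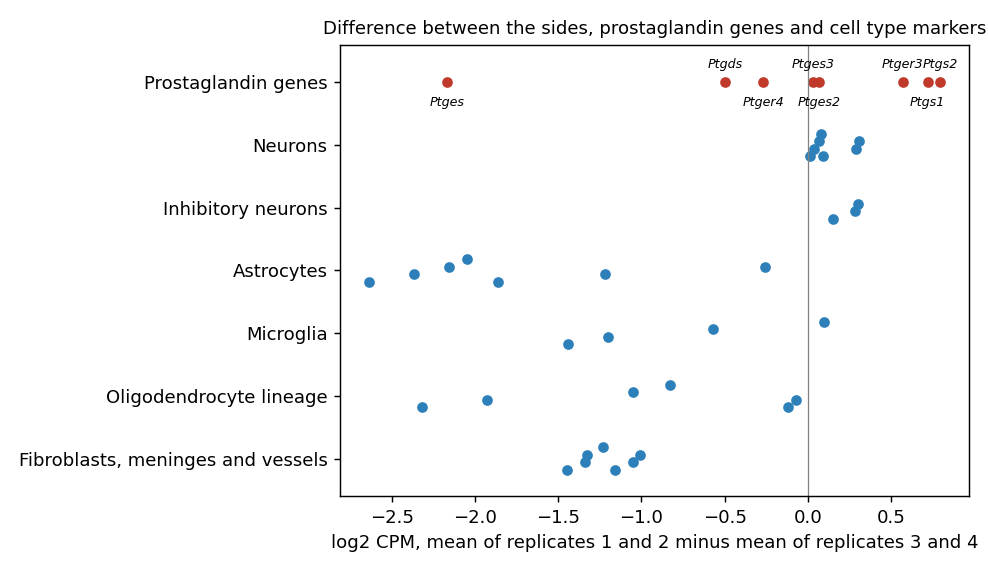
Difference in log2 CPM between replicates 1 and 2 and replicates 3 and 4 (x axis) for the 8 tested prostaglandin genes (red, named) and for the tested markers of 6 cell classes (blue, 1 point per gene). *Ptges* lies at −2.17, within the range of the markers of astrocytes and of the oligodendrocyte lineage. *Ptgs2*, *Ptgs1* and *Ptger3* lie at 0.80, 0.72 and 0.57, to the right of every neuronal marker.

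Beyond the members, 6 lists held 70 other genes, of which 52 passed the filter, with a median log2 fold change of −0.01. One list, with 23 of the tested genes, held regulators of *Ptgs2* transcription and mRNA, and the others held genes of the pathway. Without a block 1 of the 52 was called and with the replicate block 5 were, 3 lower and 2 higher, where the block called 2.25% of all genes lower and 1.73% higher. The regulators held the 1 call without a block, and 2 of the lower and 2 of the higher calls with it. In arachidonate release, 0 of 11 tested genes passed with either fit, and the most abundant per length were *Plaa*, a phospholipase A2-activating protein gene, at 59.0 ± 3.25 TPM and, not separated from it, *Faah*, a gene of fatty acid amide breakdown, at 58.8 ± 5.70 TPM (SD, n = 8 wells). Transport and breakdown (0 of 7 tested) and the lipoxygenase and epoxide branch (0 of 4) likewise had no call. The most abundant per length were *Slco3a1*, a prostaglandin transporter gene, in the former and *Ephx1*, an epoxide hydrolase gene, in the latter, where *Ephx1* (33.3 ± 12.8 TPM) varied widely between wells and was not separated from *Lta4h* (28.6 ± 1.32 TPM), a leukotriene synthesis gene.

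Of the other prostanoid synthases, 0 of 6 were called by edgeR without a block and 1 with it. *Akr1b3*, which encodes aldose reductase, an enzyme that can form prostaglandin F2α, was at 40.1 ± 1.57 CPM with vehicle against 34.6 ± 0.813 CPM with MCH. Its highest MCH-treated well (35.3 CPM) was below its lowest vehicle-treated well (38.5 CPM). Its log2 fold change was −0.21 (SE 0.0433, edgeR adjusted *P* = 0.127, with the block 0.0118), and DESeq2 called it without a block (adjusted *P* = 0.0167) and not with the replicate block (0.0773). The edgeR fits without a block on replicates 1 and 2 (adjusted *P* = 0.147), on replicates 3 and 4 (0.157) and with a well left out (0.146 to 0.447) did not call it. Of 12 alternatives other than leaving out single wells, 3 called it. Among the other prostanoid receptors, *Ptger2*, *Ptgdr* and *Ptgdr2* had at most 0.0375 CPM in any well, *Tbxa2r* 0.138, *Ptgir* 0.242 and *Ptgfr* 0.456 CPM, all 6 under the filter, and the single gene tested, *Ptgfrn*, encodes a protein associated with the prostaglandin F receptor and was not called.

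Among 23 tested regulators of *Ptgs2* transcription and mRNA, *Fos*, a subunit of the AP-1 factor, fell from 62.7 ± 7.09 CPM (54.6 to 70.4) to 33.4 ± 2.36 CPM (31.9 to 36.9), with no overlap between treatments (log2 fold change −0.91, SE 0.0840, edgeR adjusted *P* = 0.00492; with the block 7.03e-08). The *Fos* call was kept in 11 of 12 alternatives other than leaving out single wells, and missed the threshold with an offset for transcript length together with the replicate block (edgeR adjusted *P* = 0.0522). Its partner *Jun* went the other way, from 124 ± 21.6 to 147 ± 16.7 CPM (log2 fold change 0.25, edgeR adjusted *P* = 0.681; with the block 0.00115), higher in all 4 pairs. The *Jun* call did not hold with the batch block, which separates replicates 1 and 2 from 3 and 4 (edgeR adjusted *P* = 0.115), or within replicates 1 and 2 (0.0542) or 3 and 4 (0.201). *Crem*, which encodes cAMP-responsive activators and repressors, was at 22.4 ± 3.92 CPM with vehicle and 18.01 ± 1.498 CPM with MCH (log2 fold change −0.32, edgeR adjusted *P* = 0.501; with the block 0.00874). The *Crem* call did not hold in DESeq2 with the replicate block (adjusted *P* = 0.0514) or on replicates 3 and 4 (edgeR, 0.353), and without vehicle-treated replicate 2 the unblocked change was −0.20. *Celf2*, an RNA-binding protein that binds *Ptgs2* mRNA, was at 600 ± 23.1 and 655 ± 35.8 CPM (log2 fold change 0.13, edgeR adjusted *P* = 0.488; with the block 0.0231, on replicates 3 and 4 alone 0.421). *Cebpb*, which encodes a C/EBP factor, and *Creb1* did not pass with either fit (log2 fold changes −0.22 and 0.12).

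**Figure D5:**
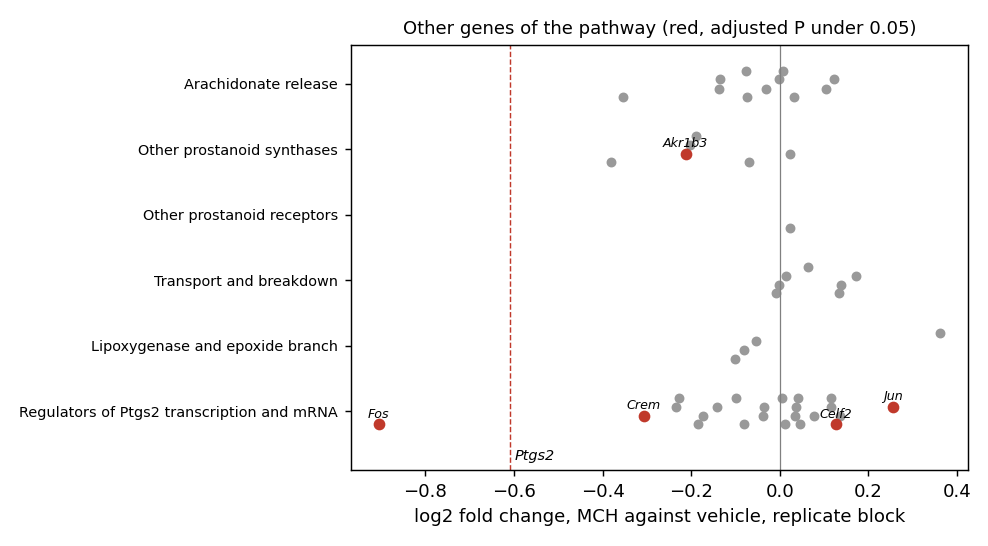
Log2 fold change of MCH against vehicle with the replicate block (x axis) for the 52 tested genes of the 6 other lists, regulators of *Ptgs2* included, 1 point per gene, with genes past an edgeR adjusted *P* of 0.05 in red and named, and a dashed line at *Ptgs2* (−0.61). Apart from *Fos*, at −0.91, no gene lies to the left of *Ptgs2*.

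The genes whose pattern over the 8 wells was most like that of *Ptgs2* were sought by the root mean square distance between centred log2 CPM, which had a median of 0.52 over all genes. *Nfil3*, which encodes a basic leucine zipper factor, was closest at 0.131, with 38.3, 42.9, 25.8 and 27.6 CPM with vehicle and 31.1, 29.1, 19.4 and 17.9 CPM with MCH, high in replicates 1 and 2 and lower with MCH in every pair. *Tcim* followed at 0.150, *Cyp26b1*, a retinoic acid-degrading enzyme gene, at 0.183, *Hapln4* at 0.215 and *Lamb3* at 0.216. These genes were chosen for a likeness that includes the difference between treatments, so that difference was not tested in them.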

How the data were processed

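Poly-A RNA of 8 wells was sequenced as stranded libraries. Reads were quantified by the authors on GRCm38 using Salmon within nf-core/rnaseq 3.0, and the labels also name R 4.0.3 and DESeq2 1.13.0. The deposited gene table holds estimated counts, unscaled, of which 9.13% are not whole, and the deposited transcript tables hold estimated counts and TPM, scaled by the authors' Salmon run for length and depth. Identifiers were matched to GENCODE vM21 (45143 of 45706 genes, 98.8%), which may not be the authors' annotation; promoters came from RefSeq.

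Counts were rounded and tested in R 4.3.3 with edgeR 4.0.16 (TMM factors, filterByExpr with count minimum 10 and total minimum 15, quasi-likelihood test without a block, Benjamini–Hochberg adjustment over 14962 genes, threshold 0.05). CPM are counts scaled with TMM factors. The SE given for edgeR is the size of the log2 fold change over the square root of the F statistic of the test. It is therefore not independent of *P*. Totals of 26083936 to 31844861 counts set the precision, and the floor of 3 counts covers counting error only. DESeq2 1.42.0, limma 3.58.1, other filters and scalings, blocks, an offset for the average transcript length and left-out wells were tried. The test was tried on simulated data.

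On deviations of log2 CPM from treatment means, the 4 pairs of wells sharing a replicate number correlated at 0.364 to 0.479, other pairs within replicates 1 and 2 or within 3 and 4 at 0.399 to 0.477, and pairs across at −0.492 to −0.35. Since all 4 were over 0.1, the numbers were taken to pair the wells, with no other support for the pairing. The known difference in *Ptgs2* along the split was also a reason for the block. Pairs with other numbers on the same side of the split correlated as much. The batch block separates replicates 1 and 2 from 3 and 4, as read from the counts.

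The members, lists and rules were chosen with earlier results of these data known. Named are the 9 members, their transcripts where reads are divided, pathway genes called in either fit, the most abundant gene of each list, and the 5 genes closest to *Ptgs2*; *Cebpb*, *Creb1*, *Gad1*, *Slc1a2*, *Sox10*, *Mog*, the receptors under the filter and genes overlapping a member were named after their values were seen. Of the list names, *Prxl2b* was not in the table (the same gene as *Fam213b*).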

Additional observations from a re-analysis of the deposited data

Results flagged for a closer look

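MCH-treated replicate 1 had 36.9 CPM of *Fos*, above the range of 31.9 to 32.6 CPM in the rest of that treatment. Its gap to the nearest well was 0.85 of the range of the group. Of 52 groups of 4 wells examined, over the members and the named genes, this was the 1 that stood out, where chance gives about 1 in 20.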

How the results depend on the processing

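The number of genes called out of all tested was 35, and 596 with the replicate block, 668 with the batch block, 170 with DESeq2 and 276 with DESeq2 and the replicate block. It was 7 with a length offset (also 7 without member transcripts under 500 bases, a choice added after seeing the data), 1 with the length offset and the replicate block, 269 on replicates 1 and 2, 189 on replicates 3 and 4, and 4 to 29 with a well left out. Members called went from 0 to 1, *Ptgs2*, with the replicate block, the batch block, DESeq2 with the replicate block, and within replicates 1 and 2 or 3 and 4. With each well left out the number stayed at 0, in fits without a block. Those fits do not bear on the blocked calls. The *Ptgs2* log2 fold change was −0.609 with those 3 blocked fits (adjusted *P* = 4.68e-07, 1.36e-07 and 3.01e-15), −0.523 on replicates 1 and 2 (0.00276) and −0.692 on replicates 3 and 4 (7.75e-06), and −0.746 to −0.446 with a well left out (0.513 to 1). With the length offset and the replicate block it was −0.958 (0.0566). Pathway genes called were 1, and 5 with the replicate block, 4 with the batch block, 2 with DESeq2, 3 with DESeq2 and the replicate block, 3 on replicates 1 and 2, 0 with the length offset and the replicate block, and 1 with each well left out. *Ptgs1* turned to −0.124 with the length offset (either version) and −0.133 with the block added, and *Ptgds* to 0.00719 on replicates 1 and 2. With a well left out and no block, *Ptgs1* ranged from −0.158 to 0.246, *Ptgds* from −0.174 to 0.0976, *Ptger3* from −0.173 to 0.0927 and *Ptges* from −0.973 to −0.144. The *Ptgs2* to *Ptgs1* difference was −0.645 on counts (exact *P* = 0.0286, the smallest possible) and −1.06 to −0.691 with a well left out, past the threshold without vehicle-treated replicate 4 (−1.06, exact *P* = 0.0286). These exact tests take no account of the cultures, and the blocked fits treat wells of 1 culture as independent. The causes were not tested. DESeq2 gave no adjusted *P* to 2 of the 8 members without a block and to 4 with it. The replicate block changed no call among the other members. Depth limits *Ptger1*, *Ptger4* and *Ptges*, on 65 counts a well or fewer.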
